A study of Mus musculus with 2 samples.

Results

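The genes described here are the mouse microRNA genes whose symbol is Mir followed by a number of 1000 or more and which had at least 3 counts on the gene's own strand in each of the 2 libraries. Of 1973 genes in the count tables, 568 carried such a number, and 130 of these met the minimum. In all, 447 genes met it, and 290 of them were miRNA genes numbered below 1000. Most of the 447 were thus numbered miRNA genes, and levels and shares below are of the counts in these tables. Mir3074-1 and the genes of a large microRNA cluster on chromosome 12 were left out by the rule, which removed 9 genes. The 130 genes were chosen by their gene-strand counts in these same libraries, so their levels are given as a description with no test.

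The libraries were made from RNA shorter than 30 nucleotides from kidneys of B6NCrl mouse embryos at 14.5 days of development. Each of the 2 biological replicates was 2 kidneys, and the replicates were collected on different days. The labels give the sex as mixed and name 1 donor record for both, and the number of embryos behind each sample stays unclear from them. There was 1 group and no treatment, so the only comparison the design allows is between the replicates, whose spread may be in part technical.

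MicroRNAs are short RNAs that guide Argonaute proteins to messenger RNAs. A hairpin in a longer transcript is usually cut out by Drosha with its partner Dgcr8, and Dicer then cuts the hairpin into the mature strands. Bases 2 to 8 of a mature strand, its seed, carry most of the pairing with targets. Names are numbered in the order in which the sequences were registered, so high numbers mark genes that were annotated late, mostly from deep sequencing. Some of these hairpins fill a short intron exactly, and splicing can then release the hairpin without Drosha (mirtrons). In a tailed mirtron only the hairpin's one end is an intron end, and other late entries have been questioned as pieces of ribosomal, transfer or other structural RNA.

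The sequences of the genes that carry most of the counts, or on which a result below rests, come from RefSeq on GRCm38.p6, the same assembly as mm10, and each is written 5′ to 3′ with its seed in capitals. RefSeq held a hairpin or mature sequence for 122 of the 130 genes (115 with the hairpin, 7 with the mature sequence alone), and 121 had a mature sequence. Mir6539, Mir1948, Mir7666, Mir7064, Mir3079, Mir6971, Mir6951 and Mir7219 had no entry there.
miR-1983: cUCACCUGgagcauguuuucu
miR-1306-3p: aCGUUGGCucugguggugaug
miR-1306-5p: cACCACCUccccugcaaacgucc
miR-3102-5p: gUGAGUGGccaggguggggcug
miR-3102-3p: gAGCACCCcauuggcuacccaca
miR-1981-5p: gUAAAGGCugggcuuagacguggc
miR-6236: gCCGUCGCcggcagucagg
miR-6240: cCAAAGCAucgcgaaggcccacggcg
miR-1251-5p: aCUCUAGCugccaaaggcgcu
miR-1298-5p: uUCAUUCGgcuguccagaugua
miR-7689-5p: cCGAGGCAgccuggcuuag
miR-1247-5p: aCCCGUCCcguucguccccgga

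The 203 mature sequences of these genes held 201 different seeds, so nearly every mature strand had a seed of its own among them. Seeds shared with at least 1 other miRNA gene numbered 29 and belonged to 30 of the 130 genes. Only 8 of the 29 were shared with another gene outside the set that had 10 or more counts per 1000000 gene-strand counts (CPM). No hairpin or mature sequence held an exact stretch of 21 bases in common with another miRNA hairpin of RefSeq.

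The pairs below show the shared seeds that join abundant or replicate-sensitive genes of the set to well-counted older ones. miR-1983 has the seed of miR-412-3p, whose gene stood at 23.4 CPM. miR-3102-5p has that of miR-702-5p (Mir702, 28.6 CPM), and both begin with GU. miR-6240 has the seed of miR-330-3p, from a gene at 246 CPM. miR-1947-3p and miR-3473d have the seed of miR-674-5p, from a gene at 828 CPM. Each level is of the gene, since the tables do not split a gene's counts between its strands.
miR-412-3p: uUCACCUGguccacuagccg
miR-702-5p: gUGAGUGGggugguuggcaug
miR-330-3p: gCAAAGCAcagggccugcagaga
miR-1947-3p: gCACUGAGcuagcucucccucc
miR-3473d: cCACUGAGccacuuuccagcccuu
miR-674-5p: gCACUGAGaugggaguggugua

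The other shared seeds of the more abundant genes of the set had partners at under 1 CPM, or with a level not analysed here. miR-7689-5p shared its seed with miR-5620-5p (Mir5620, 0.368 CPM), miR-7688-3p with miR-7652-3p (Mir7652, 0.735 CPM), miR-3064-5p with miR-3085-3p (Mir3085, 0.752 CPM), and miR-3058-3p with miR-7681-5p, whose gene had no count. miR-7083-5p shared its seed with miR-12197-3p, whose level was not analysed here. The other 4 of the 8 seeds with a well-counted partner belonged to less abundant genes of the set, named here after their values were seen. miR-3475-5p (Mir3475, 4.69 CPM) shared its seed with miR-96-3p (Mir96, 1146 CPM), and miR-7069-3p (Mir7069, 3.24 CPM) with miR-18a-3p (Mir18, 4900.5 CPM). miR-1943-5p (Mir1943, 2.28 CPM) shared its seed with miR-149-3p (Mir149, 2908 CPM), and miR-7662-3p (Mir7662, 1.66 CPM) with miR-505-5p (Mir505, 81.1 CPM).

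The tables held 5202588 counts on the gene strand in replicate 1 and 3683978 in replicate 2, so 3 counts stand for 0.577 and 0.814 CPM. Reads with more than 1 match in the genome entered no gene's count and made up 28.3% and 27.5% of the reads tallied. A gene with near-identical copies elsewhere in the genome can therefore be undercounted. Intervals given below cover counting error only and hold no spread between replicates. The reads carried no molecular identifiers, so duplicate copies of a molecule could not be set apart. Marker genes of 1 cell type differed widely in level. The axial-position genes Mir10a, Mir10b and Mir196b stood at 144007, 71380 and 28115 CPM. Epithelial genes ran from 706 CPM (Mir200a) to 14037 CPM (Mir429), with Mir200c at 5062 CPM. Stromal genes ran from 3.32 CPM (Mir199a-1) to 18645 CPM (Mir143). The tubule genes Mir192, Mir204 and Mir194-2 stood at 174, 146 and 100 CPM.

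The 130 genes took a small share of the gene-strand counts in the tables, and a single gene held most of it. Their sum was 20411 counts in replicate 1 and 15121 in replicate 2. As a share of the gene-strand total this was 0.401% ± 0.0128 (SD, n = 2). The share in replicate 1 was 0.392%, with a 95% Clopper-Pearson interval (exact) from 0.387 to 0.398, and that in replicate 2 was 0.410%, from 0.404 to 0.417, so the intervals did not meet. Mir1983 alone made up 64.6% of the genes' counts in replicate 1 (63.95 to 65.3) and 69.5% in replicate 2 (68.8 to 70.3). Without it the other 129 genes came to 0.132% ± 0.00971 (SD, n = 2). The 15 most abundant genes together held 88.9% ± 1.42 (SD, n = 2) of the counts.

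Most of the genes were rare. The median of the genes' mean levels was 2.89 CPM, from 0.695 to 2694 CPM. Only 4 genes reached 100 CPM, 26 reached 10 CPM and 110 reached 1 CPM. The 290 genes with lower numbers that met the same count minimum had a median of 167 CPM. The minimum was met by 22.9% of the 568 genes numbered 1000 and above and by 62.4% of the 465 genes with lower numbers. Of the 438 genes numbered 1000 and above that fell short, 254 had no count in either library.

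**Figure D1:**
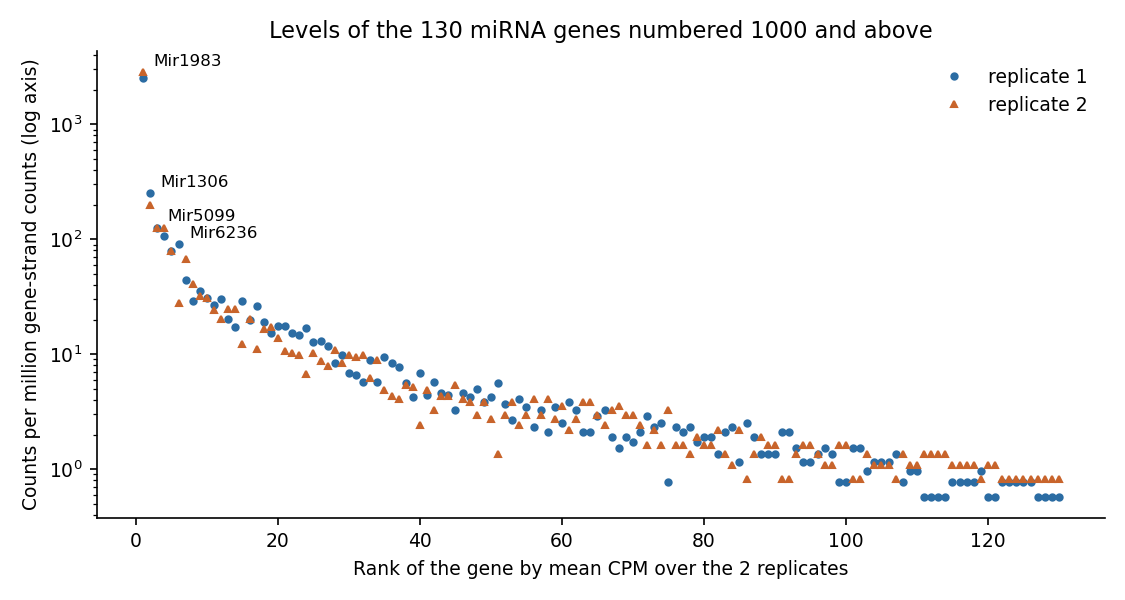
CPM of each of the 130 genes in replicate 1 (circles) and replicate 2 (triangles), on a log axis, against the gene's rank by mean CPM. Mir1983 stands alone near 2694 CPM, the next 3 genes lie above 100 CPM, and the levels then run down to the steps that whole numbers of counts leave below 1 CPM.

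Mir1983, on chromosome 13 (21896918 to 21897049, minus strand), had 13188 counts in replicate 1 and 10512 in replicate 2. Its level of 2694 CPM ± 225 (SD, n = 2) placed it at rank 54 among all 1973 genes. Mir1306 followed with 1306 and 739 counts (226 CPM ± 35.7, SD, n = 2), and it lies on chromosome 16 (18284239 to 18284317, minus strand) inside the coding sequence of Dgcr8. That gene encodes the RNA-binding partner of Drosha. The gap from the first gene to the second was wider than the spread between replicates of either.

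Mir5099 (chromosome 12, 36816205 to 36816278, plus strand) had 651 and 464 counts, or 126 CPM ± 0.580 (SD, n = 2), with no host gene on its strand. Mir3102, which fills an intron of Arhgef17, had 554 and 461 counts (116 CPM ± 13.2). Mir1981, which fills an intron of the mitochondrial reductase gene Marc2, had 412 and 294 counts (79.5 CPM ± 0.434). Mir5099 and Mir1981 each had nearly the same CPM in both libraries. Mir5099 and Mir3102 differed by less than the SD of Mir3102, so their order is not settled.

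Mir6236 (chromosome 9, 110281287 to 110281409, plus strand) had 469 and 103 counts, and its SD of 44.0 CPM around a mean of 59.1 was the widest in relation to its level among the 15 most abundant genes. Mir1251 had 232 and 250 counts (56.2 CPM ± 16.5) and lies in a 25414-base intron of Rmst, a long noncoding RNA gene. Mir1298 had 152 and 151 counts (35.1 CPM ± 8.32) and lies with Mir1264 (34 and 35 counts) in the same 85268-base intron of Htr2c, the serotonin receptor 2C gene. Htr2c and the gene model Gm20388 were the only hosts with 2 genes of the set.

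Below these, Mir7689 had 183 and 119 counts and no host on its strand, and it lies antisense to Sorcs2. Mir6539 had 159 and 114 counts in an intron of the guanine exchange factor gene Dock5, Mir1198 had 156 and 75 counts in Gripap1, and Mir1249 had 105 and 91 counts in 5031439G07Rik. Mir6944 had 140 and 89 counts and fills an intron of Dbn1, which encodes the actin-binding protein drebrin. Mir3099 had 90 and 92 counts in a 169340-base intron of Usp29, a deubiquitinase gene. Mir1247 had 150 and 45 counts and overlaps an exon of Dio3os, the noncoding gene opposite the deiodinase gene Dio3. Down the order of the 15, neighbours differed by less than the larger of their SDs between Mir5099 and Mir3102, from Mir1981 through Mir6236 to Mir1251, between Mir1298 and Mir7689, and from Mir6944 through Mir1198, Mir1249 and Mir3099 to Mir1247. The other neighbours in the order lay further apart than that.

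Levels by number followed no even slope. The 27 genes numbered in the 1000s had a median of 4.35 CPM and the 26 in the 3000s one of 4.24 CPM. The 18 genes of the 5000s had a median of 1.82 CPM, the 27 of the 6000s one of 1.45 CPM, the 25 of the 7000s one of 1.78 CPM and the 6 from 8000 up one of 1.66 CPM. The share of annotated genes that met the minimum was 36.5% for the 1000s, 37.7% for the 3000s and 37.5% for the 5000s, against 14.1% of 191 genes in the 6000s, 16.7% of 150 in the 7000s and 18.8% of 32 from 8000 up. Mir2137 was the 1 gene of 4 in the 2000s that met it.

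Membership was thin at its edge. The lower of the pair of counts was under 10 for 67 of the 130 genes, exactly 3 for 22 and 4 for 16. The best-counted genes just inside were Mir5101 (4 and 12 counts), Mir6975 (12 and 4), Mir7662 (13 and 3), Mir3095 and Mir7019 (both 11 and 3) and Mir6991 (8 and 4). Just outside stood Mir6958 and Mir7651 (both 9 and 2), Mir5622 (8 and 2), Mir1927 (7 and 2), Mir6945 (6 and 2) and Mir1960 (5 and 2), the best counted of 31 genes whose lower count was 2. The lower counts on the 2 sides of the threshold thus differ by 1 or 2 reads.

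Host genes were read from GENCODE M21 on the same strand. A host was found for 113 of the 130 genes (86.9%), against 72.8% of the 438 genes of the same numbering below the minimum and 65.9% of the 290 lower-numbered genes that met it. A protein-coding host was found for 109 of the 130. The hairpin of 77 genes was intronic in every transcript that spans it, and that of 9 more was intronic in some and exonic in a noncoding transcript such as one with a retained intron. The hairpin of 25 genes overlapped an exon of a protein-coding transcript, that of Mir1247 and Mir5103 an exon of another kind of transcript only, and 17 genes had no host.

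The 17 genes without a host included Mir1983 and so held 73.8% of the counts of the set. Apart from Mir1983, Mir5099, Mir6236 and Mir7689, they were Mir7688 (92 and 51 counts), Mir6240 (88 and 25), Mir3475, Mir5126, Mir1969, Mir1934, Mir1945, Mir5626, Mir8111, Mir7685, Mir3079, Mir1953 and Mir8120, the last at 3 counts in each library. Their median was 4.35 CPM, and it was 2.28 CPM for the 77 genes that were intronic throughout and 3.01 CPM for the 25 in exons of protein-coding transcripts. The ranges of the 3 classes overlapped.

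Of the 25 genes in protein-coding exons, 14 overlapped coding sequence, 8 a 5′ UTR and 4 a 3′ UTR; 1 gene overlapped more than 1 of these. Mir1306 in the coding sequence of Dgcr8 led them by a wide margin. Mir8112 (99 and 61 counts) overlaps the 5′ UTR of Krcc1, and Mir8114 (66 and 38) that of Glul, the glutamine synthetase gene. Mir5113 (77 and 36 counts) overlaps the 3′ UTR of Tnrc6b, which encodes an Argonaute partner of the silencing complex, and Mir3061 (44 and 40) that of Ppp2ca, the catalytic subunit of protein phosphatase 2A. Mir3057 (51 and 31 counts) lies in a coding exon of Apba3 and Mir7654 (30 and 36) in one of the arginine- and glutamate-rich protein gene Arglu1. A fragment of the host messenger RNA and a processed hairpin cannot be told apart in counts per gene.

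Many hairpins of the set ended exactly where an intron ends, which only 1 of the older genes did. The hairpin lay wholly within a host intron in 89 of the 130 genes, and in 39 of these (43.8%) at least 1 end was within 5 bases of an end of the intron. Of the 151 intronic genes with lower numbers at the same count minimum, only Mir877 in Abcf1 had such an end (0.662%). Among the 263 intronic genes of the late numbering below the minimum, 150 had one (57.0%). The position came from the annotation and not from the counts, and the share is given with no test.

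**Figure D2:**
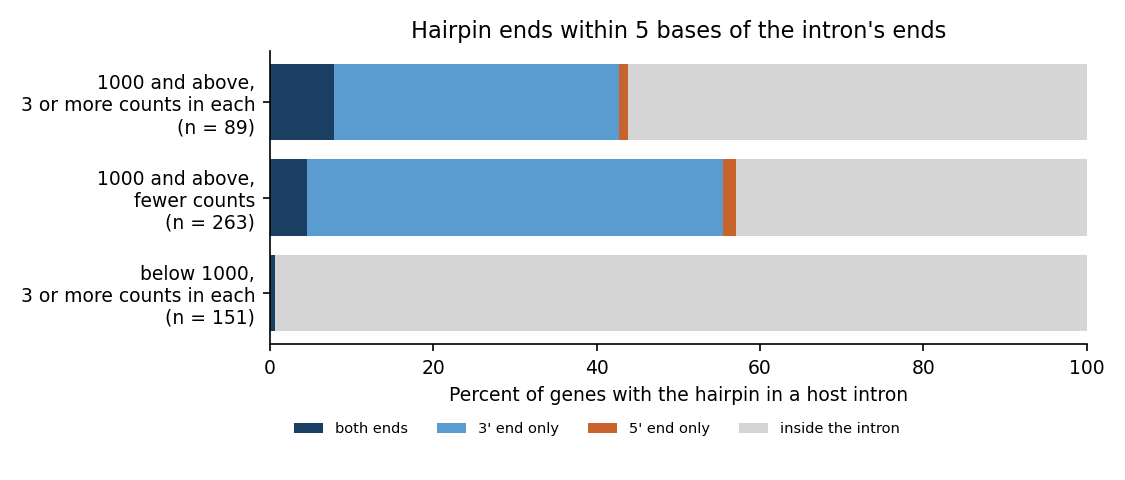
Percent of the genes with a hairpin in a host intron whose hairpin reaches both ends, the 3′ end only or the 5′ end only of the intron, within 5 bases, for late-numbered genes at and below the count minimum and for lower-numbered genes at the minimum. The first bars reach 43.8% and 57.0% in all, and the bar for lower numbers 0.662%.

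The hairpin reached both ends of the intron in 7 genes, and the intron's ends and the hairpin's were the same to the base in each. These were Mir3102 (Arhgef17, 104 bases), Mir1981 (Marc2, 82 bases), Mir6944 (Dbn1, 96 bases), Mir1982 (Oaz1, 74 bases, 12 and 15 counts), Mir3547 (Baiap3, 88 bases, 4 and 6 counts), Mir1224 (Vwa5b2, 85 bases, 8 and 3 counts) and Mir7018 (Hspg2, 85 bases, 7 and 3 counts). Oaz1 encodes ornithine decarboxylase antizyme, and Hspg2 encodes the basement membrane protein perlecan. Levels in this class ran from 1.08 to 116 CPM with a median of 3.19 CPM, so the first 3 stood far above the other 4. The hairpins of Mir1981, Mir6944, Mir1982 and Mir1224 are printed here to show an intron from end to end, with the first and last 2 bases in capitals.
Mir1981: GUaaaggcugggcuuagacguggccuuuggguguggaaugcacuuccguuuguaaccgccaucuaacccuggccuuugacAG
Mir6944: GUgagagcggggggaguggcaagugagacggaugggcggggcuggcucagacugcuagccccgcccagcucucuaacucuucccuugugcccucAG
Mir1982: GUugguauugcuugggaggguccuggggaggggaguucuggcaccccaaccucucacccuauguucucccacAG
Mir1224: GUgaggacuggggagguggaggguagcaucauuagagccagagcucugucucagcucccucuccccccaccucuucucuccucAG
All 6 hairpins of this class with a sequence begin with GU and end with AG, the bases at the ends of most introns. Because the hairpin's ends are the intron's ends here, this follows from the class.

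The hairpin reached the 3′ end of the intron alone in 31 genes, always to the base. Their introns ran from 77 to 3434 bases with a median of 683. The best counted were Mir7083 in Dock6 (40 and 15 counts), Mir6900 in Ndufa10 (23 and 16), Mir3097 in Rgs12 (20 and 14), Mir7069 in Farsa (21 and 9), Mir3094 in Nfx1 (13 and 13), Mir7064 in Cars (10 and 12), Mir6897 in Uggt1 (8 and 13) and Mir6988 in Syvn1 (13 and 6). The other members of the class, by falling level, were Mir7089, Mir7051, Mir7026, Mir6975, Mir7019, Mir6935, Mir7075, Mir6971, Mir6991, Mir6956, Mir6986, Mir6996, Mir6946, Mir6951, Mir7049, Mir6960, Mir6939, Mir6968, Mir7674, Mir6928, Mir6998, Mir6898 and Mir7079. Mir6996 lies in Notch1, which encodes a receptor of cell fate signalling, Mir6939 in the kinase gene Akt1, and Mir6935 in the cytoplasmic actin gene Actg1. The class was rare throughout, with a median of 1.35 CPM and a maximum of 5.88 CPM, and 29 of the 31 are numbered 6000 or above.

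The last bases of these hairpins are the intron's own last bases by the definition of the class. The AG that ends most introns thus follows from their position and is given as a description. Of the hairpins at a 3′ intron end, both-end class included, all 32 with a sequence end with AG, and so do 130 of 134 among the genes below the minimum. Only 3 of 46 hairpins that lie inside an intron end with AG. Mir6977, which has 7 and 6 counts, was the only gene of the set whose hairpin met the 5′ end alone, in a 79-base intron of the phosphatase gene Ptprs, and its hairpin begins with GU.

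The 50 genes inside an intron had longer introns, from 801 to 182125 bases with a median of 10657, and a median level of 3.36 CPM. Their hairpins had a median GC content of 54.2%, that of the 3′-end class 59.0% and that of the both-end class 59.7%. Beside Mir1251, Mir1298, Mir6539, Mir1198, Mir1249 and Mir3099, this class holds Mir3105 in the synaptic scaffold gene Shank2, Mir1947 in Lmln and Mir6538 in Rnf144a, whose values differed between the replicates.

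**Figure D3:**
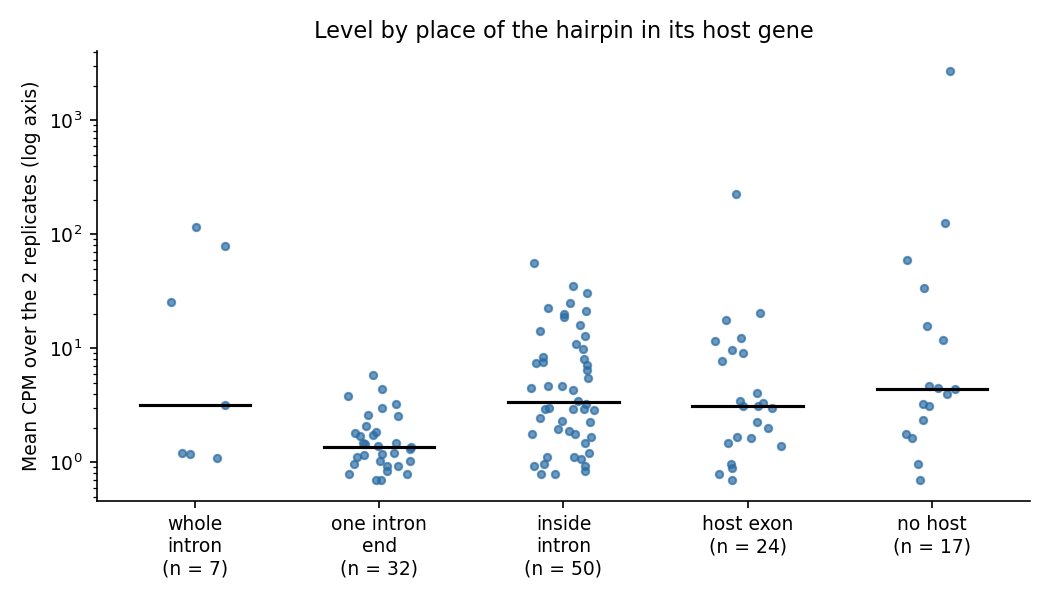
Mean CPM of each of the 130 genes on a log axis, by the place of its hairpin: filling an intron, at one intron end, inside an intron, in a host exon without an intronic reading, or with no host. Points are genes and lines are medians, which stand at 3.19, 1.37, 3.36, 3.11 and 4.35 CPM, and no gene at one intron end exceeds 5.88 CPM.

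Overlap with another annotated small RNA gene was found for 1 gene of the 568, and it was the most abundant. The Mir1983 hairpin of 132 bases contains the whole 94-base RefSeq tRNA gene n-TItat14 (chromosome 13, 21896938 to 21897031), a gene whose name marks an isoleucine transfer RNA. It leaves 18 bases before the tRNA gene and 20 after it on the hairpin's strand, and the RefSeq table gives no strand for the tRNA gene. The mature miR-1983 is 21 bases long, of which 13 are the last bases of the tRNA gene and 8 lie beyond it, with a run of 4 U among them. In the sequences that follow, the capitals mark the bases inside the tRNA gene.
Mir1983: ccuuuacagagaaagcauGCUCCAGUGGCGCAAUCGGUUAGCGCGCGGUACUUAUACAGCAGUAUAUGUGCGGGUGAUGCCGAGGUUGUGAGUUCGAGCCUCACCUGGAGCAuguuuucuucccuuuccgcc
miR-1983: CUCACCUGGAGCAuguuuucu
The seed of miR-1983 thus lies within tRNA sequence. The tables give 1 count per gene, so the 23700 reads behind the first place of Mir1983 cannot be placed along the hairpin, and those of a mature miRNA, a tRNA end and a trailer beyond the tRNA cannot be told apart.

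**Figure D4:**
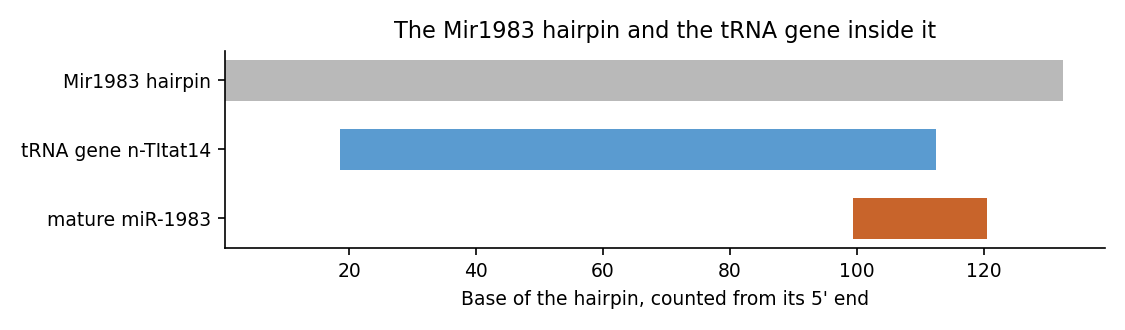
The Mir1983 hairpin, the tRNA gene n-TItat14 and the mature miR-1983, drawn by base from the hairpin's 5′ end. The tRNA gene fills bases 19 to 112 of 132, and the mature sequence runs from base 100 to base 120, across the end of the tRNA gene.

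Without a shared position, a hairpin can still repeat the sequence of a structural RNA. The 122 sequences were searched on both strands against 3910 GENCODE transcripts of ribosomal, small nucleolar, small nuclear, Cajal body, vault and other structural RNA classes. An exact stretch of 18 or more bases was found for 2 genes. Mir1934 (chromosome 11, 69663043 to 69663125, plus strand, 26 and 11 counts) shares 23 bases in the same sense with the misc_RNA gene Gm22388. Mir3473d (4 and 4 counts, in an intron of Ddx19b) shares 18 bases in the reverse sense with the misc_RNA gene Gm24139. Apart from Mir1983, whose hairpin contains a tRNA gene, the only member of the set within 1000 bases of a RefSeq small RNA gene was Mir6546 (14 and 14 counts), which lies 46 bases from the tRNA gene n-TGtcc1 in an intron of Fcgr3.

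No gene of the set shared such a stretch with a ribosomal RNA transcript, and this covers only part of ribosomal RNA. Of the 354 nuclear rRNA transcripts searched, 180 are named n-R5s for the 5S RNA and 1 is named n-R5-8s, 2 more are mitochondrial, and 0 carry a name of the 18S, 28S or 45S RNA. The search list also named Rn18s-rs5, Gm26917 and Gm42418, loci of ribosomal RNA sequence under other classes. No gene of the set shared 18 bases with them, and how much of the large ribosomal RNAs they hold was not measured. Mir6236 was searched by its mature sequence alone. Full sequences of the large ribosomal RNAs and of nuclear tRNAs were not analysed here, so an overlap of Mir6236, Mir6240 or Mir5099 with them was not tested.

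The counts of the set fell almost wholly on the annotated strand. Opposite-strand counts were 8 in replicate 1 and 3 in replicate 2, against 20411 and 15121 on the genes' own strand. The opposite strand thus held 0.0392% (95% interval by Clopper-Pearson, exact, 0.0169 to 0.0772) and 0.0198% (0.00409 to 0.0580). Over all genes the shares were 1.93% and 1.80%, and 1.17% and 1.05% without Gm25301, the gene with the most such counts. The set had to meet a minimum on the gene strand, which favours a low opposite-strand share, and all genes did not. The 290 lower-numbered genes at the minimum stood at 0.0672% and 0.0718%. Mir1983, with 64.6% and 69.5% of the set's gene-strand counts, had 0 opposite-strand counts and so lowers the set's share. The share without it was not computed, so the set is not shown to differ from the lower-numbered genes. Mir7654 had 4 and 1 opposite-strand counts, Mir7655 and Mir3086 1 in each library, Mir5618 and Mir5131 1 in replicate 1 alone, and the other 125 genes had none. No gene had more counts on the opposite strand than on its own.

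For each of the 447 genes with at least 3 counts in both libraries, the counts of the replicates were set against their TMM-scaled totals (edgeR) in an exact binomial test, two-sided, and p-values were adjusted over all 447 by Benjamini-Hochberg. Calls needed an adjusted value under 0.05 together with a 2-fold difference or more (a log2 ratio beyond 1 or -1). The test compares 2 libraries and covers counting error only, and a gene low in 1 library falls out of the set by the count minimum. Of the 130 genes, 7 were called (5.38%), beside 3.36% of the 447 genes, a figure that includes them. Lower in replicate 2 were 6 of the 7, where 2.24% of all tested genes were called in that direction, and 1 was higher, where 1.12% were.

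Mir6236 had the lowest adjusted p of the 7. It fell from 90.1 CPM in the first library to 28.0 CPM in the second, and its log2 ratio, replicate 2 over replicate 1, was -1.68 (95% interval -2.01 to -1.37, exact binomial test, adjusted p = 1.01e-31). Mir6240, the other called gene without a host, went the same way with 88 and 25 counts and a log2 ratio of -1.31 (-2.01 to -0.66, exact binomial adjusted p = 8.09e-05). Neither has an intron or exon of a host to set beside it.

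Among genes with a host, Mir1247 (150 and 45 counts) had a log2 ratio of -1.23 (-1.75 to -0.74) and Mir3105 (137 and 41 counts) of -1.24 (-1.78 to -0.72). Their adjusted p values in the exact binomial test were 5.94e-07 and 1.78e-06. Mir1247 lies at 110278048 to 110278129 on chromosome 12, outside the cluster that the rule left out. Mir1947 (36 and 9 counts) had a ratio of -1.50 (-2.74 to -0.42) and Mir6538 (29 and 5 counts) of -2.03 (-3.76 to -0.65), with exact binomial adjusted p of 0.00999 and 0.00414. Mir5101, in a coding exon of the nuclear envelope gene Syne2, went the other way with 4 and 12 counts and a ratio of 2.09 (0.37 to 4.18, exact binomial adjusted p = 0.0234).

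Of these 7 calls only that of Mir6236 was also made by edgeR's exact test with a coefficient of variation of 0.2 between replicates, where its adjusted p was 0.0399 and those of the others ran from 0.675 to 0.951. Without a size cut the exact binomial test passes well-counted genes more readily. The median level was 2.89 CPM for the 130 genes and 35.1 CPM for all 447, so their shares are not like for like. At any size of ratio, 16 of the 130 genes passed the adjusted exact binomial p (12.3%), beside 41.6% of all 447 genes. Mir1983 was among them with a log2 ratio of 0.18 (0.14 to 0.21, exact binomial adjusted p = 1.01e-19), as were Mir1306 at -0.32, Mir3102 at 0.24, Mir1251 at 0.61, Mir1298 at 0.49, Mir1198 at -0.55 and Mir3099 at 0.54.

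As a set the genes did not lean to either library. The log2 ratio was above 0 in 66 genes and below 0 in 64, with a median of 0.02, and the median of all 447 genes was 0.04. The median size of the ratio was 0.50 for the 130 genes and 0.28 for all tested. For genes with a mean count of 100 or more it was 0.21 in 12 genes of the set and 0.19 in 249 of all, nearly the same.

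**Figure D5:**
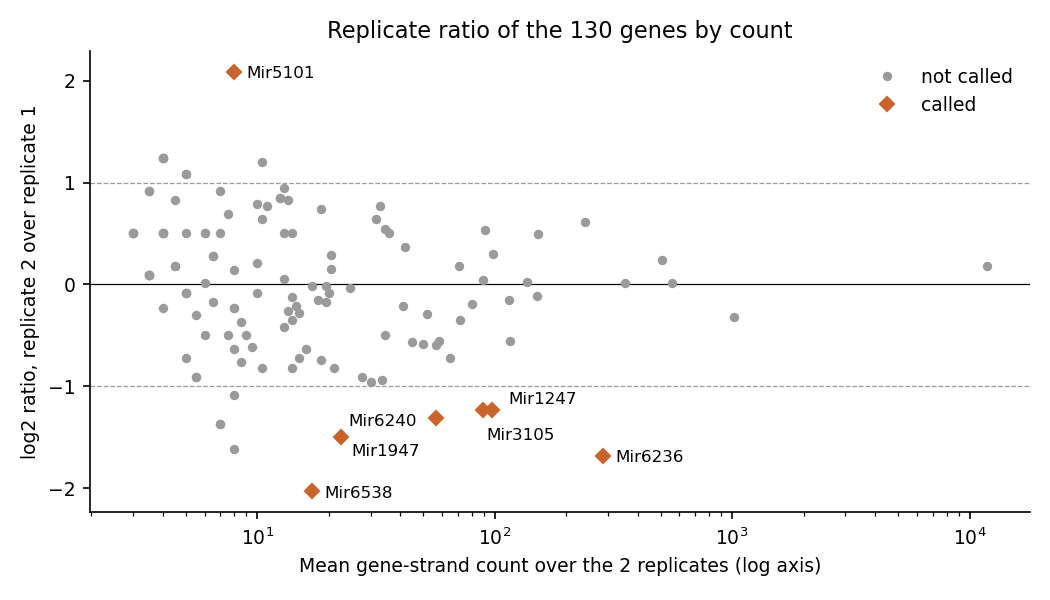
Log2 ratio of replicate 2 to replicate 1 for each of the 130 genes against its mean count (log axis), with the 7 called genes as named diamonds and dashed lines at -1 and 1. The spread narrows as the count grows, and Mir6236 at -1.68 is the best counted of the called genes.

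Marker genes of some cell types moved between the same libraries, and those of others changed little. The axial-position genes Mir10a, Mir10b and Mir196b had log2 ratios of -0.02, -0.03 and 0.37. The hepatocyte gene Mir122 had 293 counts in replicate 1 and 3957 in replicate 2. The erythroid genes Mir451a (597 and 181 counts), Mir144 (202 and 88) and Mir486 (39 and 17) had log2 ratios of -1.22, -0.70 and -0.69, while the leukocyte gene Mir223 was at 0.02. The tubule genes Mir192 and Mir194-2 were at 0.85 and 0.87 and Mir204 at -0.20. The epithelial genes Mir141, Mir200a, Mir200b, Mir200c and Mir429 lay between -0.25 and 0.08, the stromal genes Mir143, Mir145a, Mir199a-1 and Mir214 between -0.28 and 0.20, and the endothelial Mir126a at 0.09. The part of other cell types in the ratios of the 7 called genes was not tested, and in bulk tissue fewer cells of a type and less RNA per cell cannot be told apart.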

How the data were processed

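Small RNA sequencing reads shorter than 30 nucleotides were counted per gene by the submitters. The deposited tables hold whole-number counts per gene on both strands together, on the gene's strand and on the opposite strand, against mm10 and GENCODE M4 per the deposit's file descriptions. Which aligner and counter made them is not given in the sources used here. The 4 tally lines (unmapped, multimapping, no feature, ambiguous) stayed out of totals and tests.

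Gene-strand counts were divided by their sum (5202588 and 3683978) and given per 1000000 (CPM). Symbols, positions and hosts came from GENCODE M21, a later release on the same assembly, and sequences from RefSeq. Both samples form 1 group with 2 replicates. Ratios used an exact binomial test (scipy 1.17.1) on totals scaled by edgeR 4.0.16. DESeq2 1.42.0 size factors and edgeR's exact test were among the alternatives (R 4.3.3, Python 3.11.15). The binomial test was also run on simulated counts with unscaled totals. Those counts held counting error alone, so the simulation does not bear on spread between libraries. An intron end was matched within 5 bases.

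The genes, lists and tests were chosen with earlier results of these data known. Named are the 15 most abundant genes, those overlapping or sharing 18 bases with another small RNA, the called, the intron-end, the edge, the leading exonic and the leading seed-sharing genes. The leukocyte marker Mir142 was not used here.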

Additional observations from a re-analysis of the deposited data

How the results depend on the processing

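Between 2 libraries of 1 group, leaving out a replicate leaves no ratio to compute, and the calls were not run that way. No paired analysis was possible because there is only 1 group. The median level of the 130 genes was 1.505 CPM, in place of 2.89, when all reads tallied were the denominator, and ran from 2.40 to 2.71 CPM with each replicate alone. Their share of the counts was 0.132% without Mir1983, in place of 0.401%, and 0.391% to 0.406% with a count minimum of 10 or 1. The opposite-strand share ran from 0.0198% to 0.0392% with each replicate alone.

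The 15 calls among 447 genes and 7 among the 130 became 2 and 1 in edgeR's exact test, both with a coefficient of variation of 0.2 and with the estimated one of 0.1997. The estimate came from the same 2 libraries taken as 1 group and lies close to the assumed value. These settings are therefore not separate checks. With a minimum of 10 counts, 4 of the genes were called, since 63 of them remained to be tested. DESeq2 size factors, unscaled totals, no minimum and unstranded counts each gave 7 calls in the set. The count of genes sharing a stretch with a structural RNA, 2 at 18 bases, was 6 at 16 bases and 1 at 21. A host was found for 116 genes in place of 113 with both strands. Depth limits the rare genes most: 67 had under 10 counts in a library.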
